A study of Mus musculus with 10 samples.

Results

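The 9 genes described here are the Hedgehog ligands *Shh*, *Ihh* and *Dhh*, the receptor *Ptch1*, the signal transducer *Smo*, the decoy receptor *Hhip* and the transcription factors *Gli1*, *Gli2* and *Gli3*. They were taken by symbol from the 55487 genes counted, in RNA-seq libraries of mouse mammary epithelial cells (MECs) and mammary macrophages. *Dhh*, *Ptch1* and *Hhip* differed between the cell types, *Dhh* and *Ptch1* being higher in macrophage libraries and *Hhip* higher in MECs. Between genotypes none of the 7 genes tested passed, where only 8 of 15689 genes passed in MECs and 0 of 17772 in macrophages. *Shh* and *Ihh* were near or at 0 in most libraries and were not tested between genotypes in the main fits.

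Both cell types came from the mammary glands of female mice in diestrus, aged 10 wk and on the BALB/c background. *Cebpb* ΔM mice carry *Csf1r-iCre* and floxed *Cebpb* (*Cebpb* fl/fl), so that *Cebpb*, the gene of the transcription factor C/EBPβ, is deleted in cells that express *Csf1r*, mostly macrophages. The WT controls also carry *Cebpb* fl/fl but lack the Cre, and the deposited labels call the *Cebpb* ΔM samples knockdown. MECs were obtained by removing cells with markers of other lineages, and macrophages by positive selection for F4/80, a macrophage surface antigen. In *Cebpb* ΔM mice the MECs themselves keep *Cebpb* and lie beside macrophages that were meant to lose it. There were 2 WT MEC libraries (replicates 1 and 3), 2 *Cebpb* ΔM MEC libraries (1 and 3), 2 WT macrophage libraries (4 and 5) and 4 *Cebpb* ΔM macrophage libraries (4 to 7). Nothing in the sources used here says how many animals gave each library, so the p-values measure only the spread between these libraries.

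Hedgehog ligands are secreted proteins that bind Ptch1 on a receiving cell and thereby release Smo from inhibition. Smo acts at the primary cilium to keep the Gli factors, mainly Gli2 and Gli3, from being processed into repressors, and *Gli1*, *Ptch1* and *Hhip* are themselves transcribed when the pathway is active. In the mammary gland, Ptch1 and Gli3 repressor activity are known for restraining the pathway in the developing bud and duct, and Dhh is best known as a ligand of Schwann cells, endothelium and testis.

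The total count was 25310926 to 27008166 in MEC libraries and 16935000 to 20174722 in macrophage libraries, so a floor of 3 counts was 0.111 to 0.119 counts per 1000000 (CPM) in MECs and 0.149 to 0.177 CPM in macrophages. *Cebpb* itself gave 69 and 42 counts in *Cebpb* ΔM MECs, 25 and 28 in WT MECs, 16, 13, 5 and 4 in *Cebpb* ΔM macrophages and 13 and 15 in WT macrophages, so its count was low throughout and did not separate the macrophage genotypes. The paper shows the deletion by other means. It reports no detectable C/EBPβ protein in cultured bone marrow macrophages of *Cebpb* ΔM mice, and none by staining in CSF1R-positive cells of their glands. By quantitative RT-PCR it reports *Cebpb* mRNA as undetectable in such cultured cells treated with LPS. With a reporter of Cre recombination it shows marked stromal cells in the gland, which it calls likely macrophages. Macrophage markers summed to 3818 to 9166 CPM over 12 genes in macrophage libraries and 31.5 to 46.9 CPM in MECs. Of these 12, 8 were above the floor in both WT MEC libraries and 9 in both *Cebpb* ΔM MEC libraries. *Adgre1*, which encodes F4/80, and *Itgam* were at 0 in both *Cebpb* ΔM MEC libraries. The 12 luminal epithelial markers summed to 29770 to 37970 CPM in MECs but also to 5980 to 11460 CPM in macrophage libraries, with all 12 above the floor in each. Endothelial markers (8 genes) summed to 1198 to 2598 CPM in macrophage libraries against 119 to 170.1 CPM in MECs, pericyte markers (6 genes) to 354 to 733 against 64.7 to 94.9, and fibroblast markers (10 genes) to 3492 to 7882 against 5337 to 6523. The macrophage libraries thus held RNA of several cell types. The MEC libraries also carried fibroblast markers, at sums within the range of the macrophage libraries. In such bulk samples fewer cells of a type and less RNA per cell cannot be told apart. Cell type, isolation procedure and any difference between sequencing runs also cannot be told apart here.

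**Figure D1:**
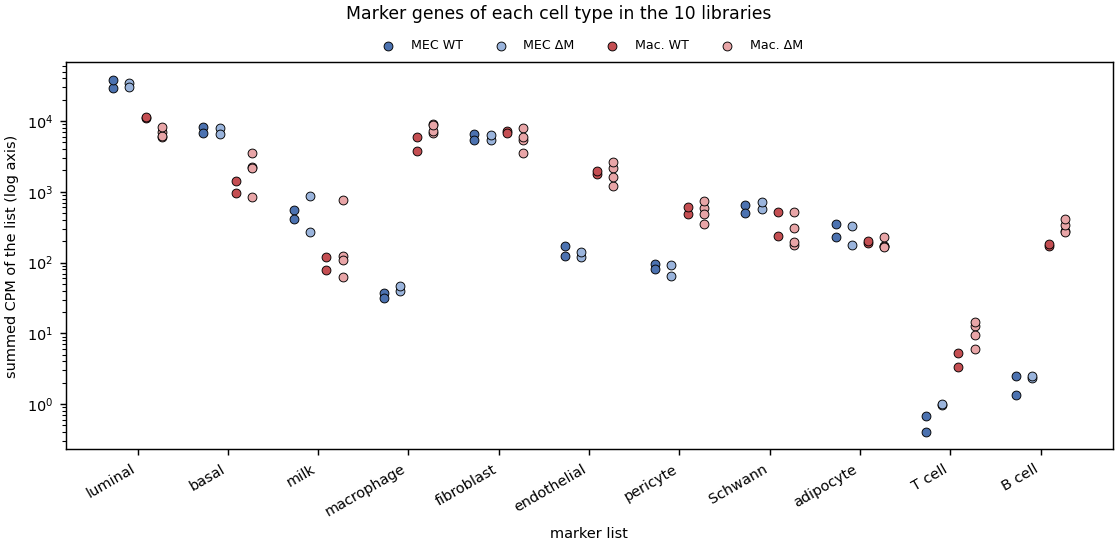
Summed CPM (log axis) of 11 lists of cell type markers in each of the 10 libraries, with 1 point per library and colors for cell type and genotype. Macrophage, endothelial, pericyte, T cell and B cell lists lie higher in every macrophage library than in every MEC library, luminal and basal lists lie higher in every MEC library, and the fibroblast sums overlap.

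The promoters of *Dhh* and *Hhip* are shown because these 2 genes had the clearest difference between the cell types, in opposite directions, and because deletion of a C/EBP factor raises the question of C/EBP sites near their starts. RefSeq promoter sequences were at hand for 7 of the 9 genes, without *Shh* and *Gli1*. The 250 bases before the start site are given 5′ to 3′ on the gene's strand, in lower case, with capitals for the letters GGGCGG (the GC box bound by Sp factors) and TTNNGNAA (a C/EBP-type motif), searched on both strands. Both genes lie on the minus strand of GRCm38.p6, the *Dhh* stretch at chr15:98898541-98898790 and the *Hhip* stretch at chr8:80058009-80058258.
Dhh: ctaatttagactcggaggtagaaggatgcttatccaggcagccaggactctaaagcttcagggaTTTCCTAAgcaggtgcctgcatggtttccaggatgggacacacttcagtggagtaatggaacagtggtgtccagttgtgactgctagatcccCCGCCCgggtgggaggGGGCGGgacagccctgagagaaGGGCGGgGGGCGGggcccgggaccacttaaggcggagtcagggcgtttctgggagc
Hhip: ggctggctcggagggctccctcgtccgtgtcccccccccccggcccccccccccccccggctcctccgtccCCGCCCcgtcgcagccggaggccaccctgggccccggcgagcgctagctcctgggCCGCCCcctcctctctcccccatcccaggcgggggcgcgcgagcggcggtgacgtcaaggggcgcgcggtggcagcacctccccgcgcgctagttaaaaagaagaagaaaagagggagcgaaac

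The *Dhh* stretch held 4 GC boxes and 1 C/EBP-type match, at -186 from the start site, and the *Hhip* stretch held 2 GC boxes and no C/EBP-type match. Over all 32851 promoters, 32.7% of such windows held a GC box and 36.8% a C/EBP-type match, so neither motif is rare. The GLI motif TGGGTGGTC was found in none of the 7 Hedgehog windows and in 0.225% of all promoters. GC content was 59.6% for *Dhh* and 76% for *Hhip*, against a median of 52.4% over all promoters, and the other 5 windows ranged from 67.2% (*Gli2*) to 78.4% (*Ptch1*). C/EBP-type matches stood once in the *Smo* and *Gli2* windows and 2 times in that of *Gli3*. A match in this list of letters is a description and no site of binding.

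Of the ligands, *Shh* (GRCm38 chromosome 5, 28456815 to 28467256, minus strand) was all but undetected. It had 1 count in WT MEC 3, 5 counts in WT macrophage 4 and 0 in each of the other 8 libraries, which allows up to 3 counts in each of these. Exons of *9530036O11Rik* on the opposite strand cover 446 nt of *Shh*.

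*Ihh* (chromosome 1, 74945315 to 74951672, minus strand) had 6 and 1 counts in WT MECs, 4 and 0 in *Cebpb* ΔM MECs and 0 in both WT macrophage libraries. In *Cebpb* ΔM macrophages it had 25, 10, 2 and 3 counts, or 1.27, 0.486, 0.108 and 0.18 CPM. These 4 libraries were all above the WT macrophage libraries, but 2 of them stood at or under the floor. The mean was at least 3.49-fold higher than in WT macrophages, taking the floor of 3 counts per library for WT, but at least 1.76-fold without *Cebpb* ΔM macrophage 4, a limit computed after seeing the data. The library with 25 counts, *Cebpb* ΔM macrophage 4, also had the highest sums among macrophage libraries of milk protein genes (768 CPM, against 61.5 to 125 in the other 5) and of basal markers (3492 against 858 to 2269 CPM). In MEC libraries, with 0 to 6 *Ihh* counts, these sums were 272 to 883 and 6562 to 8179 CPM. The part of such RNA in the *Ihh* value was not tested. *Shh* and *Ihh* did not reach 1 CPM in 2 libraries and were not tested in the fits over all genes. In the exact permutation test of MEC against macrophage libraries, run for each of the 9 genes, p was 1 for *Shh* and 0.543 for *Ihh* (two-sided, 4 against 6 libraries).

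*Dhh* (chromosome 15, 98891152 to 98898540, minus strand) was the 1 ligand above the floor in every library. It stood at 3.15 and 3.89 CPM in WT MECs and at 4.58 and 6.66 CPM in *Cebpb* ΔM MECs. In macrophage libraries it stood at 12.2 and 25.6 CPM for WT and at 10.2, 17.5, 19.4 and 14.6 CPM for *Cebpb* ΔM. Every macrophage library was thus above every MEC library.

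Over both genotypes, *Dhh* was lower in MECs by a log2 fold change of -1.94 ± 0.29 (SE), with an adjusted p of 0.000263 in edgeR's quasi-likelihood (QL) test over 18321 genes. The exact permutation test gave p = 0.00952, the smallest that 4 against 6 libraries allow (two-sided). The difference was called within WT mice (-2.43 ± 0.43, adjusted p = 0.00207) and within *Cebpb* ΔM mice (-1.46 ± 0.38, adjusted p = 0.0122), although without *Cebpb* ΔM MEC 1 the latter was -1.21 with an adjusted p of 0.127. As background, 24.7% of all genes tested were called higher in macrophage libraries over both genotypes, 14.8% in WT and 19% in *Cebpb* ΔM mice.

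Markers of several cell types moved in the same direction as *Dhh*. All 12 macrophage markers and all 8 endothelial markers were called higher in macrophage libraries, against 24.7% of all genes. The macrophage and endothelial sums were higher in every macrophage library than in every MEC library. The 6 Schwann cell markers summed to 178 to 521 CPM in macrophage libraries and 499 to 721 CPM in MECs. The Schwann sums overlapped, with 2 of the 6 macrophage libraries above the lowest MEC library, and 3 of the 6 markers were called higher in MECs and 0 in macrophage libraries. The part of any of these cell types, macrophages included, in the *Dhh* difference was not tested. The 1460 nt gene *Gm49442* on the opposite strand shares 1107 nt of exon with *Dhh* and followed it, with 53 to 104 counts in MECs and 129 to 352 in macrophage libraries, and *Rhebl1* on the same strand shares 546 nt and had 58 to 73 and 32 to 80 counts.

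The counts gave no sign that reads of the 2 strands were kept apart, although the counting was set to use strand. In 26 pairs, at least 95% of a gene lay opposite exons of a gene above 20 RPKM (CPM per kilobase of annotated exon). The inner gene's RPKM was a median of 2.11 times that of the outer gene, and it was over 0.5 times in 20 pairs. The library kit is a low-input Smart-Seq kit whose strand is not stated. Counts of opposite-strand neighbors therefore cannot be told apart from those of *Dhh*, *Gli1*, *Gli3*, *Hhip* or *Shh* where their exons overlap.

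*Ptch1* (chromosome 13, 63508328 to 63573598, minus strand), the receptor that holds Smo inactive, stood at 5 and 5.23 CPM in WT MECs and 2.39 and 6.12 CPM in *Cebpb* ΔM MECs. In macrophage libraries it stood at 11.7 and 12.1 CPM for WT and at 5.59, 9.08, 7.74 and 12.6 CPM for *Cebpb* ΔM. The cell types overlapped in 1 pair of libraries, *Cebpb* ΔM MEC 3 lying above *Cebpb* ΔM macrophage 4.

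Over both genotypes *Ptch1* was lower in MECs by -1.13 ± 0.31 log2 (adjusted p = 0.0129, QL test), with an exact permutation p of 0.019 (two-sided, unadjusted). Within a single genotype the difference did not pass, at -1.22 ± 0.47 in WT (adjusted p = 0.0786) and -1.04 ± 0.42 in *Cebpb* ΔM mice (adjusted p = 0.0799). Fibroblasts are a known site of Ptch1, and the fibroblast sums overlapped between the cell types. Of the 10 fibroblast markers, 5 (*Pdgfra*, *Pdgfrb*, *Dpt*, *Pi16* and *Fap*) were called higher in macrophage libraries, against 24.7% of all genes. None was called higher in MECs, although 3 of the 10 had a fitted value on that side. The median of the 10 was -1.04 log2. The endothelial and pericyte lists were higher in every macrophage library. The part of these cell types in the *Ptch1* difference was not tested.

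*Smo* (chromosome 6, 29735503 to 29761365, plus strand), the membrane protein that passes the signal into the cell, stood at 20.5 and 18.2 CPM in WT MECs and 23.7 and 19.8 CPM in *Cebpb* ΔM MECs. In macrophage libraries it stood at 26.5 and 32.3 CPM for WT and 25.3, 23.1, 9.85 and 15.2 CPM for *Cebpb* ΔM. The *Cebpb* ΔM macrophage libraries spread on both sides of the MECs, and the cell type difference was -0.18 ± 0.25 log2 (adjusted p = 0.589), with an interval of 2 SE from -0.68 to 0.32.

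*Hhip* (chromosome 8, 79965851 to 80058006, minus strand), a membrane protein that binds and sequesters the ligands, stood at 7.58 and 4.21 CPM in WT MECs and 4.34 and 8.6 CPM in *Cebpb* ΔM MECs. It had 0 counts in both WT macrophage libraries. In *Cebpb* ΔM macrophages it had 0, 20, 71 and 12 counts, or 0, 0.971, 3.84 and 0.719 CPM. Every MEC library was above every macrophage library, and the mean in WT MECs was at least 40.3-fold higher than in WT macrophages, taking a floor of 3 counts per library.

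The QL test called *Hhip* higher in MECs over both genotypes (adjusted p = 0.00359) and within WT (adjusted p = 0.0127), against a background of 19.8% and 10.7% of all genes called higher in MECs. The fitted log2 differences of *Hhip*, 6.11 and 10, depend on the prior count because WT macrophages were at 0 and are no estimate of size. Within *Cebpb* ΔM mice the difference was 2.22 ± 1.02 log2 and did not pass (adjusted p = 0.123), where 14.7% of all genes were called higher in MECs. Without WT macrophage 5 the call within WT had an adjusted p of 0.0652, and without *Cebpb* ΔM macrophage 6, the library with 71 counts, the difference within *Cebpb* ΔM mice was 3.51 with an adjusted p of 0.0185. The exact permutation p was 0.00952 (two-sided, unadjusted), the smallest this design allows. The basal and luminal lists were higher in every MEC library. Of the 6 Schwann cell markers, 3 were called higher in MECs and 0 in macrophage libraries, and the fibroblast sums overlapped. The part of these cell types in the *Hhip* difference was not tested.

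*Gli1* (chromosome 10, 127329882 to 127341974, minus strand), an activator and a readout of the pathway, was low in all libraries. It stood at 1.25 and 2.15 CPM in WT MECs, 1.22 and 1.39 in *Cebpb* ΔM MECs, 1.8 and 1.42 in WT macrophages and 1.37, 2.33, 4.71 and 3.12 in *Cebpb* ΔM macrophages. The groups overlapped and the cell type difference was -0.53 ± 0.42 log2 (adjusted p = 0.326). *Arhgap9*, a hematopoietic gene on the opposite strand, shares 62 nt of exon with *Gli1* and had 7 to 17 counts in MECs but 639 to 1345 in macrophage libraries, and how many of the 27 to 87 *Gli1* counts in macrophage libraries come from it was not tested.

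*Gli2* (chromosome 1, 118834132 to 119053619, minus strand), the main activator of the pathway, stood at 2.62 and 1.42 CPM in WT MECs and 1.38 and 1.39 in *Cebpb* ΔM MECs. It stood at 3.7 and 0.712 CPM in WT macrophages and 2.54, 3.21, 4 and 1.74 in *Cebpb* ΔM macrophages. The 2 WT macrophage libraries were thus the second highest and the lowest of all 10.

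*Gli3* (chromosome 13, 15463235 to 15730026, plus strand), the main repressor, stood at 12.3 and 14.6 CPM in WT MECs and 9.49 and 13.1 in *Cebpb* ΔM MECs. In macrophage libraries it stood at 18.3 and 9.83 CPM for WT and 9.85, 14, 2.22 and 6.95 for *Cebpb* ΔM. The cell type difference was -0.59 ± 0.48 log2 for *Gli2* (adjusted p = 0.349) and 0.19 ± 0.41 for *Gli3* (adjusted p = 0.73), each with the groups overlapping.

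Of the 7 genes tested, 3 passed between the cell types, *Hhip* higher in MECs and *Dhh* and *Ptch1* higher in macrophage libraries. The median log2 difference of the 7 was -0.53, against -0.05 over all 18321 genes. Placing *Hhip* at its bound could not move this median, since *Hhip* was the highest of the 7 either way. Since 19.8% and 24.7% of all genes were called in these directions, 1 and 2 of 7 is a share of the kind seen across the genome.

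**Figure D2:**
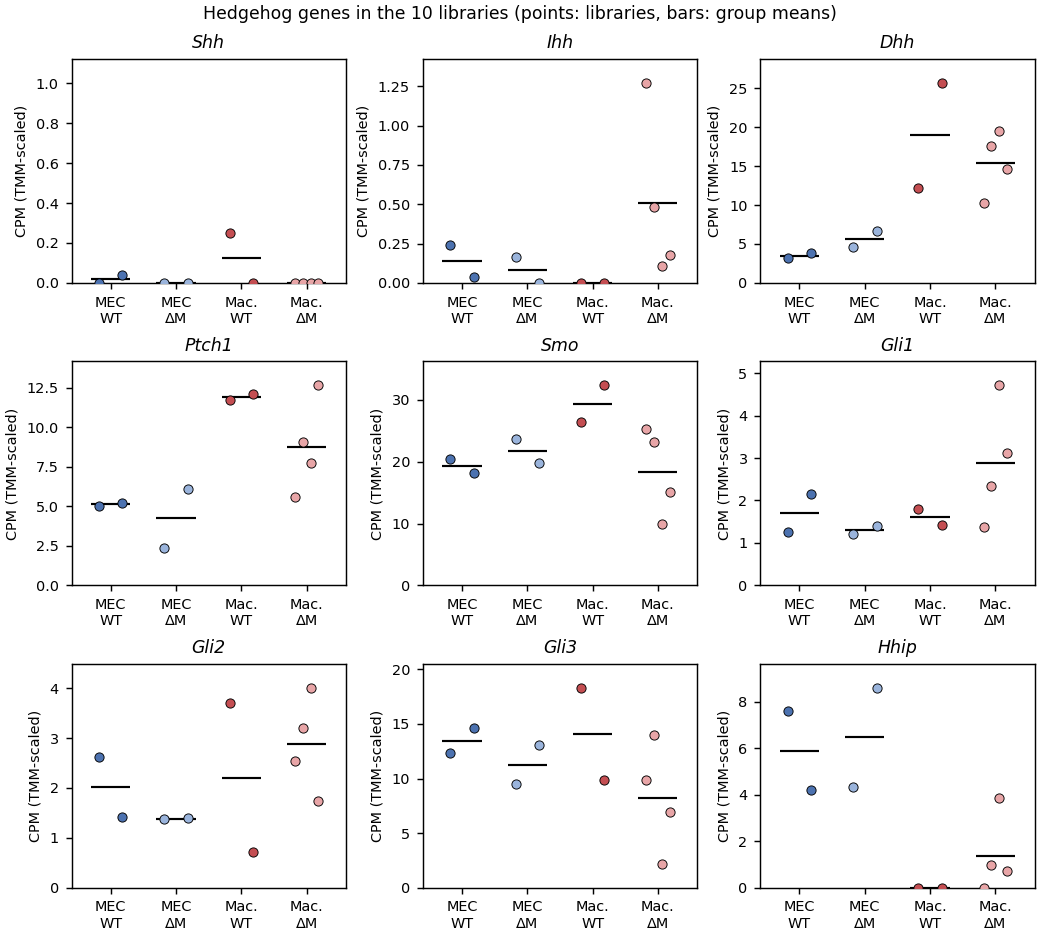
CPM scaled by the trimmed mean of M-values (TMM) for each of the 9 genes, with 1 point per library, bars for group means and a separate linear axis from 0 for each gene. *Dhh* is above 10 CPM in all 6 macrophage libraries and below 7 CPM in all 4 MEC libraries, *Hhip* is above 4 CPM in MECs and at 0 in both WT macrophage libraries, and *Shh* stays below 1 CPM throughout.

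Levels were compared between genes only per length, as RPKM, the length being that of all annotated exons of a gene joined. This can exceed the length of the transcript expressed, so the order between genes is approximate. In WT MECs *Smo* was highest (3.44 ± 0.29 RPKM, SD, n = 2), then *Gli3* (1.4 ± 0.17), *Dhh* (0.8 ± 0.12), *Hhip* (0.65 ± 0.26), *Ptch1* (0.361 ± 0.011), *Gli1* (0.34 ± 0.13), *Gli2* (0.294 ± 0.12), *Ihh* (0.0464 ± 0.047) and *Shh* (0.00711 ± 0.010). The ranges of *Dhh* and *Hhip*, of *Ptch1*, *Gli1* and *Gli2*, and of *Ihh* and *Shh* overlapped with their neighbors in this order. In *Cebpb* ΔM MECs *Dhh* (1.28 ± 0.33 RPKM, n = 2) stood before *Gli3* (1.18 ± 0.26), with overlapping ranges, and the rest of the order was as in WT MECs.

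In WT macrophages *Smo* (5.23 ± 0.74 RPKM, SD, n = 2) and *Dhh* (4.3 ± 2.2) led with overlapping ranges, followed without overlap by *Gli3* (1.47 ± 0.63) and *Ptch1* (0.841 ± 0.018). *Gli1* (0.323 ± 0.053) and *Gli2* (0.321 ± 0.31) came next and overlapped, before *Shh*, *Ihh* and *Hhip*, which were at or near 0. In *Cebpb* ΔM macrophages *Dhh* (3.51 ± 0.91 RPKM, n = 4) and *Smo* (3.27 ± 1.3) again led with overlapping ranges, above *Gli3* (0.861 ± 0.52), and from *Gli3* down each gene overlapped the next. On the RPKM scale the ranges of *Dhh* and *Smo* thus overlapped in macrophage libraries, whereas in MECs *Smo* was above *Dhh* without overlap.

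**Figure D3:**
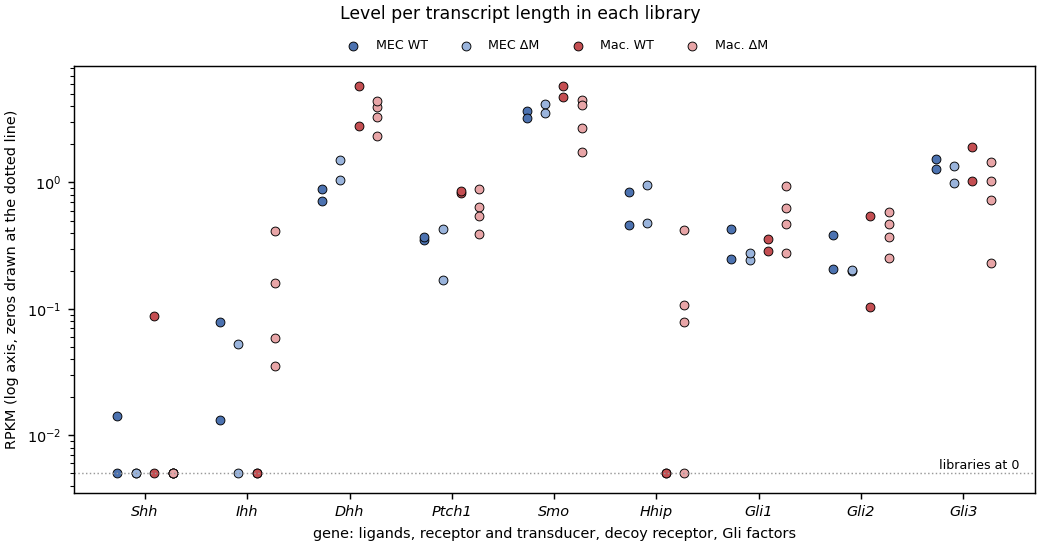
Level of the 9 genes as RPKM (log axis) in each library, ordered by role, with libraries at 0 drawn on the dotted line. *Smo* lies between 1.75 and 5.75 RPKM in all 10 libraries, while *Dhh* ranges from 0.715 to 1.51 RPKM in MECs and from 2.32 to 5.83 RPKM in macrophage libraries.

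The comparison of genotypes in MECs asks whether loss of C/EBPβ in macrophages changed Hedgehog genes in the epithelium beside them. The QL test called 0 of the 7 genes tested, against 8 of all 15689 genes (0.051%). By the likelihood ratio test and DESeq2, which called 179 and 161 genes, the count of Hedgehog genes called was also 0, while 851 of all genes but 0 of these 7 had an unadjusted QL p under 0.05. *Dhh* came closest, with the *Cebpb* ΔM libraries above the WT libraries and a log2 fold change of 0.70 ± 0.36 (adjusted p = 1, QL test), an interval of 2 SE from -0.02 to 1.42.

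*Smo* was the other gene whose MEC genotypes did not overlap when CPM without TMM scaling was compared, at 0.19 ± 0.24 log2 (adjusted p = 1). Of all genes tested, 29.2% showed no overlap in this comparison of 2 against 2, so 2 of 7 is the background share. The other 5 genes ranged from -0.52 ± 0.47 (*Gli2*) to 0.16 ± 0.41 (*Hhip*), and the median of the 7 was -0.23 against -0.01 over all genes. *Ptch1*, *Gli1*, *Gli3* and *Hhip* turned their sign when 1 MEC library was left out, so no direction is given for them.

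In macrophages the comparison asks what deletion of *Cebpb* did in the targeted cells. The QL test called 0 of 17772 genes (0%) and so none of the 7 Hedgehog genes, while 1534 genes, *Hhip* the 1 Hedgehog gene among them, had an unadjusted p under 0.05. The likelihood ratio test called 138 genes and DESeq2 called 201, again with 0 Hedgehog genes among them. *Smo* was lower in every *Cebpb* ΔM library than in either WT library (-0.70 ± 0.36 log2, adjusted p = 0.638, QL test), with an interval of 2 SE from -1.42 to 0.02.

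*Ptch1* did not overlap between the macrophage genotypes when CPM was taken without TMM scaling but did with it, *Cebpb* ΔM macrophage 7 then being highest, and its difference was -0.47 ± 0.34 log2 (adjusted p = 0.757). No overlap was seen in 18.8% of all genes tested, against 2 of these 7. *Hhip* was at 0 in both WT libraries and had 0, 20, 71 and 12 counts in *Cebpb* ΔM libraries, so that the *Cebpb* ΔM mean was at least 9.46-fold higher, or at least 3.85-fold without *Cebpb* ΔM macrophage 6. With 1 library at 0 the groups overlapped, and the QL test gave an adjusted p of 0.531. *Gli1* (0.81 ± 0.60), *Gli2* (0.36 ± 0.69), *Gli3* (-0.79 ± 0.60) and *Dhh* (-0.32 ± 0.36) differed by less than 2 SE, and *Dhh* and *Gli2* turned their sign without WT macrophage 5. The median of the 7 was -0.32 against 0.00 over all genes.

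*Cebpb* ΔM macrophage 6 stood at one end for several genes, lowest of the 4 for *Smo* and *Gli3* and highest for *Dhh*, *Gli1*, *Gli2* and *Hhip*. It also had the lowest fibroblast sum (3492 CPM, against 5316 to 7882 in the other 3) and the highest endothelial, pericyte and Schwann sums (2598, 733 and 513 CPM). The basal list was 858 to 3492 CPM in *Cebpb* ΔM and 971 to 1406 in WT macrophages. Luminal markers were 5980 to 8252 CPM in *Cebpb* ΔM and 11180 to 11460 in WT. All 10 basal markers had a positive fitted value (0.117 to 1.83 log2), as did the 5 milk protein genes tested. Of the 12 luminal markers, 11 had a negative one (median -0.58 log2), as did 9 of the 10 fibroblast markers (median -0.27 log2). None of these passed the test, and 50.4% of all genes had a positive value. The macrophage markers themselves summed to 6826 to 9166 CPM in *Cebpb* ΔM and 3818 to 5855 CPM in WT libraries without overlap, all 12 having a positive fitted value (median 0.57 log2) and 0 passing the test. The B cell sums (268 to 413 against 172 to 182 CPM) and the T cell sums (6.05 to 14.2 against 3.3 to 5.22 CPM) also did not overlap. The part of these cell types in the genotype values was not tested.

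**Figure D4:**
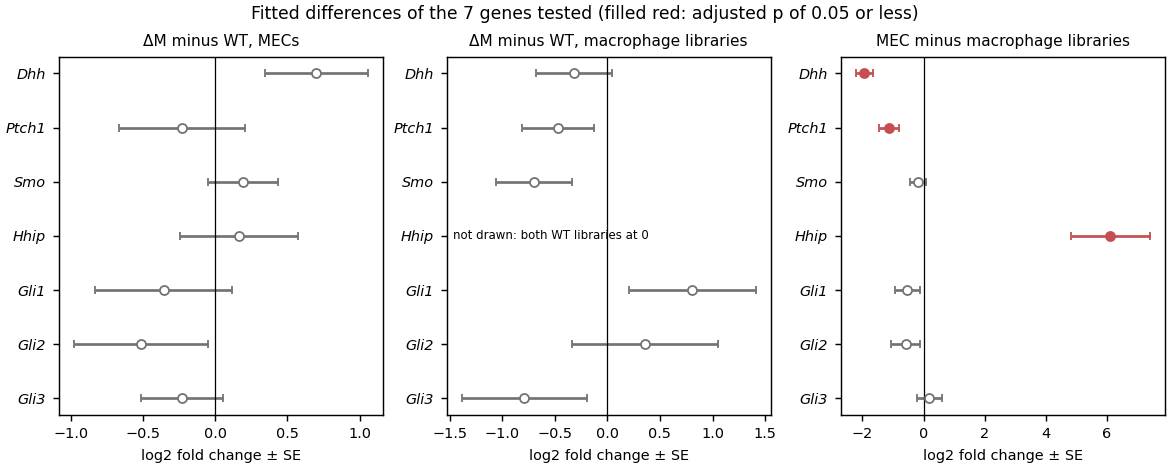
Log2 fold changes with SE from the QL fits for the 7 genes tested, between genotypes in MECs, between genotypes in macrophage libraries and between cell types, on separate linear axes. *Hhip* is left out of the macrophage genotype panel since both WT libraries were at 0, and its position between the cell types depends on the prior count. Filled points, all 3 in the cell type panel, passed an adjusted p of 0.05.

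The joint fit also asked whether the effect of genotype differed between MECs and macrophages, as an interaction term. Its QL test called 0 of 18321 genes (0%), with 951 at an unadjusted p under 0.05, *Hhip* the 1 Hedgehog gene among them, and the likelihood ratio test and DESeq2 called 53 and 27 genes, none of them a Hedgehog gene. The fitted genotype values of *Smo*, 0.19 in MECs and -0.70 in macrophages, differed by 0.85 ± 0.50 log2 in this fit (adjusted p = 0.99). For *Dhh* it was 0.97 ± 0.54 (adjusted p = 0.988). *Hhip*, again with WT macrophages at 0, had an adjusted p of 0.942.

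The rest of the pathway was described through lists of known components, whose counts stand against the 19.8% of all genes called higher in MECs and the 24.7% called higher in macrophage libraries. Of 3 co-receptors, 1 passed between the cell types. *Boc*, a co-receptor that aids ligand binding, was higher in MECs (77 ± 16 CPM, SD, n = 4, against 48.3 ± 16, n = 6), by 0.68 ± 0.24 log2 (adjusted p = 0.0355), a call lost (adjusted p = 0.0516 to 0.12) on leaving out any MEC library, *Cebpb* ΔM macrophage 5 or 7, or either WT macrophage library. *Cdon* and *Gas1*, the other co-receptors, stood at 10.2 ± 2.7 and 5.76 ± 1.8 CPM in MECs and 10.7 ± 2.4 and 7.51 ± 3.6 CPM in macrophage libraries and did not pass (adjusted p = 0.675 and 0.512).

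Of 7 genes that modify, release or carry the ligands, 5 were tested and 1 passed. *Disp1*, which releases the lipid-bearing ligand from the cell that makes it, was lower in MECs (5.99 ± 0.97 CPM, n = 4) than in macrophage libraries (10.7 ± 2.2, n = 6), with -0.78 ± 0.22 log2 (adjusted p = 0.0146). The call was lost without *Cebpb* ΔM MEC 1 (adjusted p = 0.0564) or WT MEC 3 (0.0708). *Hhat*, which attaches palmitate to the ligands, stood at 22.9 ± 8.3 CPM in MECs and 14.2 ± 5 in macrophage libraries (adjusted p = 0.11). *Gpc3*, a glypican that competes with Ptch1 for ligand, stood at 113 ± 21 and 91.6 ± 20 CPM (adjusted p = 0.243).

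The secreted carriers *Scube1* and *Scube3* stood at 3.55 ± 0.84 and 2.82 ± 0.32 CPM in MECs and at 2.63 ± 2.4 and 1.37 ± 0.80 CPM in macrophage libraries (adjusted p = 0.715 and 0.148). Without WT macrophage 4, *Scube3* and *Hhat* passed as higher in MECs (adjusted p = 0.00185 and 0.0336). *Disp2* and *Scube2* had at most 26 and 25 counts in any library and were not tested.

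Of 14 genes of intracellular transduction, 3 were called higher in MECs and 2 in macrophage libraries, against 19.8% and 24.7% of all genes, so these counts are near or under the background. *Fbxw11* (0.67 ± 0.13 log2, adjusted p = 0.00194), a part of the ubiquitin ligase that leads to Gli processing, and *Csnk1a1* (0.67 ± 0.16, adjusted p = 0.00602), a kinase that phosphorylates Gli factors and Smo, were higher in MECs. *Grk2* (-0.62 ± 0.15, adjusted p = 0.00592), a kinase of Smo, was higher in macrophage libraries. The list's median was -0.26 log2 against -0.05 over all genes. Among 12 genes of the primary cilium, 3 were called higher in MECs, against 19.8% of all genes, and 0 in macrophage libraries, against 24.7%. The 3 were *Arl13b* (1.70 ± 0.19, adjusted p = 3.65e-05), a ciliary membrane GTPase, *Cep164* (0.45 ± 0.16, adjusted p = 0.0387), which docks the basal body, and *Dync2h1* (0.65 ± 0.23, adjusted p = 0.0416), the motor of retrograde transport. The list's median was 0.04 log2, and the calls of *Cep164* and *Dync2h1* each failed in 8 of 14 alternative settings, with the largest adjusted p, 0.16 and 0.168, without WT macrophage 5.

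Of 10 known targets of Gli factors in other tissues, 6 were tested and 2 passed, both higher in macrophage libraries, as were 24.7% of all genes, so nothing is read from this count. These were *Bmp4*, a secreted growth factor (-1.66 ± 0.23 log2, adjusted p = 0.000168), and *Ccnd2*, a cyclin of the G1 phase (-1.17 ± 0.16, adjusted p = 0.00017). The list's median was -0.18 log2. In both genotype comparisons and in the interaction, 0 genes of these 5 lists passed.

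**Figure D5:**
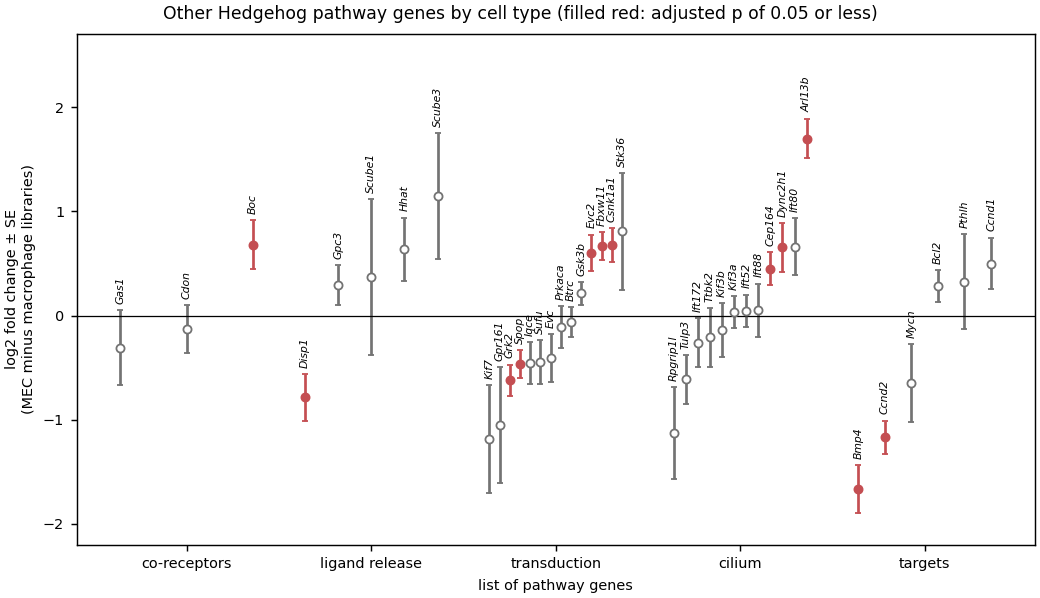
Log2 fold changes with SE between MEC and macrophage libraries (positive, higher in MECs) for the tested genes of 5 lists of the Hedgehog pathway, sorted within each list. Filled points, 12 in all, passed an adjusted p of 0.05, with 7 higher in MECs and 5 higher in macrophage libraries.

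The genes whose log2 CPM was most like that of each Hedgehog gene over the 10 libraries were found by Pearson's r, a description in which all libraries of a cell type share its level. For *Dhh* they were *Atp8a1* (r = 0.985), its opposite-strand neighbor *Gm49442* (0.979) and *Gm11764* (0.979). For *Ptch1* they were *Gm13568* (0.974), *Thbs2* (0.96) and *Pdik1l* (0.952), for *Smo* *Sapcd2* (0.958), *4932702P03Rik* (0.941) and *Asphd2* (0.934), and for *Hhip* *Gm42671* (0.952), *Ccdc73* (0.946) and *Gm43599* (0.946). For *Gli1* they were *Gpr21* (0.942), *Ankrd12* (0.933) and *Gm16892* (0.92), for *Gli2* *Gm43622* (0.953), *Cep72* (0.952) and *Adamts14* (0.937), and for *Gli3* *Nuf2* (0.938), *Spc24* (0.937) and *Ninl* (0.936). None of these 21 genes is another of the 9. Among the Hedgehog genes themselves, r was 0.767 for *Dhh* and *Ptch1*, 0.754 for *Smo* and *Gli3* and -0.807 for *Smo* and *Gli1* (n = 10 libraries, from 2 cell types).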

How the data were processed

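RNA was measured in 4 MEC and 6 macrophage libraries. The authors deposited raw counts of read pairs per gene, which are not normalized. They had trimmed reads with Trimmomatic and mapped them to GRCm38 with HISAT2. Pairs mapped at both ends with quality 10 or more were counted in reverse-strand mode by featureCounts (1.6.2) on the annotation of Ensembl (release 100). Symbols came from the GENCODE annotation of the same build.

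Genes of at least 300 nt and above 1 CPM in at least 2 libraries of a fit were tested in R (version 4.3.3) with edgeR (version 4.0.16), using TMM scaling, the QL test and Benjamini-Hochberg adjustment over all genes tested, at 0.05. Genotypes were fitted within each cell type. Cell type and interaction contrasts came from 1 fit of all 10 libraries with a mean per group. The authors' methods name the likelihood ratio test, which was an alternative here, as was DESeq2 (version 1.42.0). CPM and RPKM in the text carry the TMM factors of the 10-library fit, and log2 CPM used a prior count of 2. Marker sums used the same CPM. Single genes were compared by an exact two-sided permutation test, with scipy (version 1.17.1). The functions were tested on simulated counts.

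The Hedgehog genes, lists and tests were chosen with earlier results of these data known. The named genes are the 9, all co-receptors and release genes, the 3 genes with the smallest p past the threshold in each other list, and the 3 most alike genes of each. No library was left out of the main fits. An item of the pathway lists is not reported here.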

Additional observations from a re-analysis of the deposited data

How the results depend on the processing

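Between the cell types, *Dhh*, *Ptch1* and *Hhip* kept their direction and their call in all 14 alternative settings, with adjusted p of at most 0.00285 for *Dhh*, 0.0482 for *Ptch1* and 0.0173 for *Hhip*. No alternative called a Hedgehog gene between genotypes or in the interaction. Counts of all genes called moved more. In MECs between genotypes, where 8 were called, the likelihood ratio test called 179, DESeq2 161, a fit without the CPM filter 38 and the fit of all 10 libraries 0, with 5 to 339 on leaving out 1 library. In macrophages the likelihood ratio test called 138 and DESeq2 201, and in the interaction 53 and 27, with 0 to 1 on leaving out 1 library. Replicate numbers are shared between genotypes, but no source says that they mark a litter or batch, and same-numbered libraries deviated together only weakly (r = 0.106 in MECs, 0.127 and -0.0861 in macrophages). With the replicate block, 206 genes were called in MECs and 12 in macrophages, and 0 Hedgehog genes. The cause of these differences was not tested.

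On leaving out 1 library in turn, genes called between cell types ranged from 2454 to 4845 in WT and from 3496 to 6554 in *Cebpb* ΔM mice, and Hedgehog genes called from 1 to 3 and from 0 to 2. Signs turned for values that had passed no test. Between genotypes the log2 values ranged from -1.10 to 0.30 (*Ptch1*), -0.70 to 0.11 (*Gli1*), -0.51 to 0.0013 (*Gli3*) and -0.45 to 0.64 (*Hhip*) in MECs, and from -0.76 to 0.32 (*Dhh*) and -0.39 to 1.98 (*Gli2*) in macrophages. Between the cell types they ranged from -0.99 to 0.20 (*Gli2*), -0.027 to 0.42 (*Gli3*) and -0.35 to 0.038 (*Cdon*), and within WT from -0.36 to 0.41 (*Gli1*), -0.92 to 1.45 (*Gli2*) and -0.49 to 0.41 (*Gli3*). The interaction of *Ptch1* ranged from -0.65 to 0.71, and the difference in mean log2 CPM from -0.32 to 0.13 for *Shh* and -0.22 to 0.12 for *Smo*. With Spearman's rho, *Gli3* and its closest gene by Pearson's r, *Nuf2*, had 0.697.

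With 2 libraries in 3 of the 4 groups, exact tests between genotypes cannot pass, and genes near 1 CPM, such as *Gli1* and *Gli2*, rest on 15 to 87 counts per library. *Shh* and *Ihh* lie close to the floor in most libraries, so no difference between groups is read from their counts. RNA of other cell types, in the MEC as well as the macrophage libraries, and unseparated strands limit what a level says about 1 cell type.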
